A study of Mus musculus with 6 samples.

Results

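Mitotic markers are genes whose transcripts build up as a cell nears division, and 10 of them were followed in sorted Treg cells: *Mki67*, *Top2a*, *Birc5*, *Ccnb1*, *Ccnb2*, *Cdk1*, *Aurkb*, *Nusap1*, *Plk1* and *Bub1*. The genes were listed by symbol, and for a symbol with more than 1 probe set the brightest over all arrays stood for the gene. Of the 10 genes, 9 were measured, each by 1 named probe set, among 19505 genes in all. *Ccnb1* had no named probe set and was not analysed here. Treg cells are the CD4+ T cells, marked by the transcription factor *Foxp3*, that hold other immune cells in check. The study removed *Rbx1* and *Sag*, the RING subunits of cullin-RING ubiquitin ligases, from Treg cells with a Cre driven by the *Foxp3* YFP-Cre allele. RNA of CD4+YFP+ cells from peripheral lymph nodes and spleens was measured on Clariom S mouse arrays, 3 labelled control and 3 labelled *Rbx1*&*Sag*-deficient. The study describes the sorted cells as coming from females with 1 Cre allele, *Foxp3* Cre/wt in the control group and *Foxp3* Cre/wt with floxed *Rbx1* and *Sag* in the *Rbx1*&*Sag*-deficient group, so that Cre and YFP are shared by both. *Foxp3* is X-linked, so these females also keep Treg cells without Cre. Mice were 8 to 12 weeks old, and 2 to 3 mice were pooled for each array. P-values therefore measure the spread between pools, and 3 arrays against 3 allow no exact two-sided permutation p below 0.1.

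Most T cells rest outside the cell cycle, and Treg cells are known for a larger cycling fraction in vivo than other CD4+ T cells. Entry into mitosis rests on Cdk1 bound to a B-type cyclin, helped by Plk1. Aurora B with survivin (*Birc5*), and the checkpoint kinase Bub1, watch over the attachment of chromosomes to the spindle, and the anaphase-promoting complex then marks cyclin B and securin for destruction. Cullin-RING ligases also drive the cycle by degrading its inhibitors. Transcripts of this kind are held down in resting cells by the DREAM complex, which reads the cell cycle genes homology region (CHR, TTTGAA), often beside CCAAT boxes bound by NF-Y.

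Promoters of the mitotic markers are shown first for the 2 genes that passed the test and for *Mki67*, the marker most widely used for cycling cells. Sequences are the 250 bases before the annotated start in RefSeq on GRCm38.p6, 5′ to 3′ on the strand of the gene, with TTTGAA and CCAAT on either strand in capitals.
Ccnb2 (chr9:70421555-70421804, minus strand): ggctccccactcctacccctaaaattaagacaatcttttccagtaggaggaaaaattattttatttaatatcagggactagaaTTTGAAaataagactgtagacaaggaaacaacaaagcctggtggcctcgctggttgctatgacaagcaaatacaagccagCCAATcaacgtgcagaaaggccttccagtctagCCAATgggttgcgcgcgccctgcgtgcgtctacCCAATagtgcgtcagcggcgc
Nusap1 (chr2:119618048-119618297, plus strand): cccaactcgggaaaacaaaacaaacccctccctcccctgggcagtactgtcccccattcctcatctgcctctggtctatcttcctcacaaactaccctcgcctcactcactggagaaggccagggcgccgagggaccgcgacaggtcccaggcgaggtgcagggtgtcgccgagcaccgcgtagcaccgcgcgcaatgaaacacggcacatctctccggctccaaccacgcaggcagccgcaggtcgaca
Mki67 (chr7:135716380-135716629, minus strand): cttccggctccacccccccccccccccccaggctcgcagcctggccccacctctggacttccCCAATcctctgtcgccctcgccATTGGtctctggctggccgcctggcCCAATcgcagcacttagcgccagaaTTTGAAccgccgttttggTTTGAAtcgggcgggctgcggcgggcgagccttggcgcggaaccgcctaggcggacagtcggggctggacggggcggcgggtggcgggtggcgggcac
The *Ccnb2* promoter held CCAAT at -87, -54 and -21 and TTTGAA at -167 from the start, with another TTTGAA at 5 after it. That of *Mki67* held TTTGAA at -116 and -98 and CCAAT at -188, -166 and -141. Neither motif was found in the *Nusap1* window, which says only that these letters are not there. RefSeq promoter windows, which run from 250 bases before to 50 after the start, were matched for 8 of the 9 measured genes, all but *Aurkb*. TTTGAA was found in 5 of the 8 and CCAAT in 6, both in *Mki67*, *Top2a*, *Ccnb2*, *Cdk1* and *Plk1*, CCAAT alone in *Bub1* and neither in *Birc5* and *Nusap1*. Over all 32851 promoter windows of the same length, TTTGAA was found in 17.9%, CCAAT in 37.4% and both in 6.95%. Of the 2 genes past the test, the one that was lower held both motifs and the one that was higher held neither. *Mki67*, *Top2a*, *Cdk1* and *Plk1*, which also held both, and *Birc5*, which held neither, were not called. A match is a description of the letters and not a site.

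Signals are log2 values as the authors deposited them, and a difference of 1 is a doubling. Array medians lay at 4.0 to 4.11 in control and 4.13 to 4.32 in *Rbx1*&*Sag*-deficient cells, while upper quartiles lay at 7.68 to 7.81 and 6.93 to 7.37, so that brighter genes stood lower and dim genes higher in the latter. *Rbx1* read 9.26 to 10.08 in control and 5.04 to 5.84 in *Rbx1*&*Sag*-deficient cells, which fits the labels. *Sag*, listed as *Rnf7*, differed by -0.57 on the log2 scale (adjusted p = 0.379 from limma), and whether its probe set covers the deleted exons is not known. The titles carry the word muscle, but 4 of 6 muscle markers, *Acta1*, *Myh1*, *Myh4* and *Des*, lay below the median of all 6 arrays. *Ckm* and *Tnnt3* did not. *Ckm* read 4.57 to 5.15 in control and 4.75 to 5.09 in *Rbx1*&*Sag*-deficient cells, and *Tnnt3* 4.34 to 5.05 and 3.99 to 4.65. T cell markers (5 of 6 measured) averaged 15.98 to 16.22 and 14.96 to 15.76, and 3 of them, *Cd3d*, *Cd3g* and *Cd4*, fell (adjusted p = 0.044, 0.049 and 0.04 from limma). Treg markers (5 of 6 measured) averaged 15.13 to 15.43 and 13.77 to 14.38, and 3 of them, *Ikzf2*, *Tnfrsf18* and *Tnfrsf4*, fell (adjusted p = 0.005, 0.019 and 0.002 from limma). Among all genes above the median signal, 18.3% were lower at an adjusted p under 0.05, and the median log2 fold change was -0.397. Whether the calls of these T cell and Treg markers hold under other normalizations was not examined. The part of their falls in the values of the mitotic markers was not tested. For *Foxp3* no probe set was named.

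The mitotic markers did not move as a block in *Rbx1*&*Sag*-deficient Treg cells. *Nusap1* was higher (2.49-fold) and *Ccnb2* was lower (2.42-fold) than in control cells, without overlap between groups, and the other 7 genes did not pass the test. Of those 7, 6 had a positive log2 fold change, where 53.0% of all genes had a higher mean in *Rbx1*&*Sag*-deficient cells. The largest were those of *Mki67* and *Top2a*, whose *Rbx1*&*Sag*-deficient arrays spread over more than 2 log2 units. The sign went with the signal, being positive for 2909 of 9747 genes above the median signal and 7426 of 9758 at or below it. *Cdk1*, *Aurkb* and *Bub1*, all with a positive log2 fold change, lay at or below the median signal. Calls were made at an adjusted p under 0.05 from limma over all 19505 genes. At that threshold 12.2% of all genes were called, 2.7% higher and 9.49% lower, against 1 of 9 mitotic markers in each direction. By signal, 3.02% of the genes above the median signal were called higher and 18.3% lower, and 2.39% and 0.646% of those at or below it. At an unadjusted p under 0.05 from limma, which 30.2% of all genes reached (11.4% higher and 18.9% lower), the same 2 markers were the only ones. The median log2 fold change was -0.397 over the genes above the median signal and 0.22 over those at or below it. It was 0.363 over the 9 markers and 0.043 over all genes. These were 0.957 and 0.637 after centring each array on its brighter genes (those above the median signal, hereafter bright-gene centring) and 0.17 and -0.15 after median centring, settings that shift all genes of an array alike, and 0.529 and 0.017 with quantile and 0.399 and 0.005 with cyclic loess normalization. In sorted bulk cells, a difference in the share of dividing cells and a difference in transcript per dividing cell cannot be told apart.

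**Figure D1:**
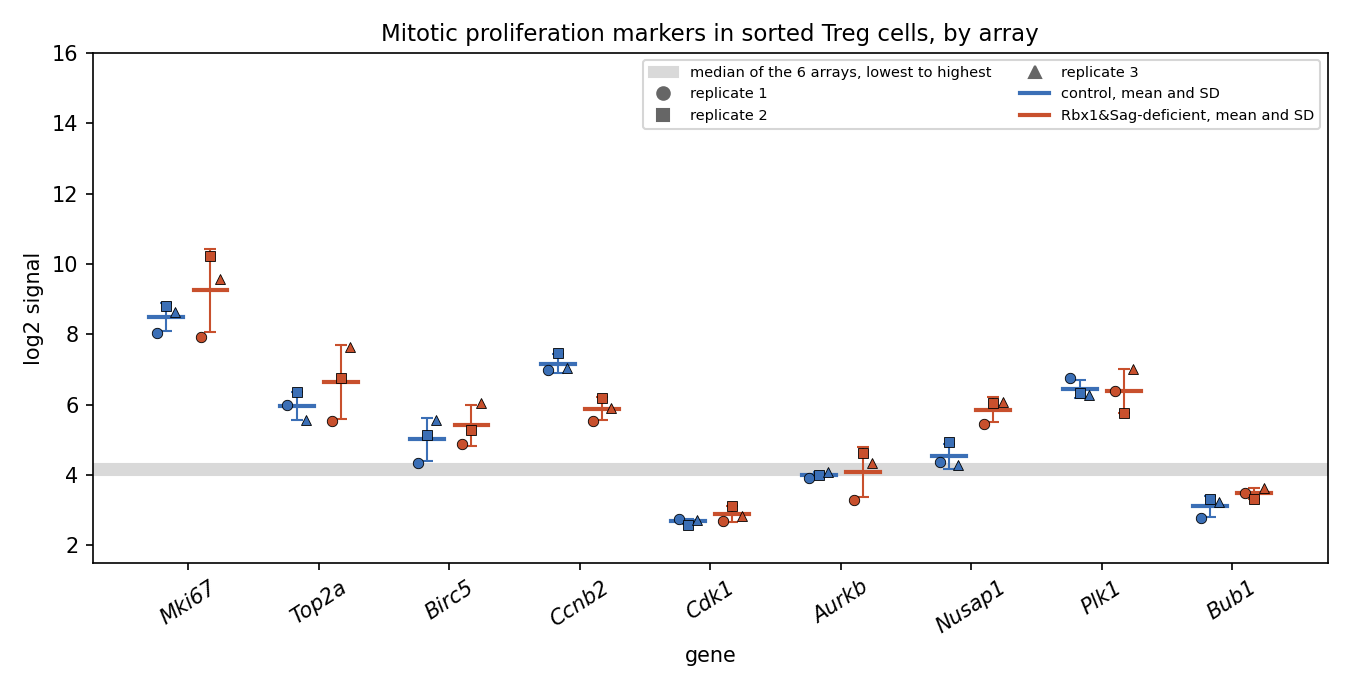
Log2 signal (vertical axis) of the 9 measured mitotic markers (horizontal axis) on each array, control in blue and *Rbx1*&*Sag*-deficient in orange, with circles, squares and triangles for replicates 1, 2 and 3, bars for the mean and whiskers for the SD; the grey band spans the medians of the 6 arrays, 4.0 to 4.32. *Ccnb2* lies lower and *Nusap1* higher without overlap, while the *Rbx1*&*Sag*-deficient arrays of *Mki67* run from 7.93 to 10.24.

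Among the cyclin and its kinase, only the cyclin passed the test. *Ccnb2*, a B-type cyclin that binds Cdk1, read 6.99, 7.48 and 7.03 in control replicates 1 to 3 and 5.55, 6.20 and 5.92 in *Rbx1*&*Sag*-deficient replicates 1 to 3. Every *Rbx1*&*Sag*-deficient array lay below every control array. On the log2 scale *Ccnb2* fell by 1.28 (standard error 0.25, 95% interval -1.85 to -0.70, adjusted p = 0.015 from limma), from 7.17 ± 0.27 (SD, n = 3) to 5.89 ± 0.33 (SD, n = 3). The log2 fold change stayed negative under all 17 alternatives, between -1.47 and -0.683. It was not called after quantile normalization (-0.743, adjusted p = 0.0995 from limma), cyclic loess normalization (-0.806, adjusted p = 0.0683), bright-gene centring (-0.683, adjusted p = 0.065), or without control replicate 2 (-1.12, adjusted p = 0.078) or control replicate 3 (-1.35, adjusted p = 0.0569). *Cdk1*, the kinase that starts mitosis, read 2.74, 2.59 and 2.71 in control and 2.69, 3.13 and 2.83 in *Rbx1*&*Sag*-deficient cells, below the median of every array. The groups overlapped, and the log2 fold change of 0.20 (95% interval -0.28 to 0.69) was not called (adjusted p = 0.559 from limma). Signal over background limits what can be read for *Cdk1*.

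*Nusap1*, a microtubule-binding protein that steadies the spindle around the chromosomes, was the marker that rose. It read 4.37, 4.95 and 4.30 in control and 5.45, 6.05 and 6.07 in *Rbx1*&*Sag*-deficient cells. Every *Rbx1*&*Sag*-deficient array lay above every control array, with *Rbx1*&*Sag*-deficient replicate 1 nearest to them. *Nusap1* rose by 1.32 on the log2 scale (standard error 0.27, 95% interval 0.70 to 1.93, adjusted p = 0.0176 from limma), from 4.54 ± 0.36 (SD, n = 3) to 5.86 ± 0.35 (SD, n = 3). Its call held under all 4 scalings, with log2 fold changes from 1.12 after median centring to 1.91 after bright-gene centring. It was lost without control replicate 1 (1.23, adjusted p = 0.0733) and without control replicate 3 (1.20, adjusted p = 0.083). Groups did not overlap for 35.0% of all genes, 15.2% with the *Rbx1*&*Sag*-deficient arrays above and 19.7% with them below.

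*Mki67* and *Top2a* had the next largest positive log2 fold changes, and for both the *Rbx1*&*Sag*-deficient arrays disagreed among themselves. *Mki67*, whose protein Ki-67 coats mitotic chromosomes, read 8.05, 8.80 and 8.65 in control and 7.93, 10.24 and 9.58 in *Rbx1*&*Sag*-deficient cells. *Rbx1*&*Sag*-deficient replicate 1 lay below all control arrays, and replicates 2 and 3 lay above all of them. The log2 fold change was 0.75 (standard error 0.52, 95% interval -0.42 to 1.92, adjusted p = 0.36 from limma). It was 1.41 (adjusted p = 0.0401) without *Rbx1*&*Sag*-deficient replicate 1 and 0.255 (adjusted p = 0.734) without replicate 2. *Top2a*, the topoisomerase that disentangles sister chromatids, read 5.98, 6.35 and 5.56 in control and 5.55, 6.75 and 7.63 in *Rbx1*&*Sag*-deficient cells. As for *Mki67*, replicate 1 lay below all control arrays while replicates 2 and 3 lay above them. Its log2 fold change was 0.68 (standard error 0.47, 95% interval -0.38 to 1.74, adjusted p = 0.36 from limma). Without *Rbx1*&*Sag*-deficient replicate 1 it was 1.23 (adjusted p = 0.0715), and without replicate 3 it was 0.187 (adjusted p = 0.792). Both genes passed the test after bright-gene centring (adjusted p = 0.0344 and 0.0428), a setting that moved the median of all genes to 0.637. These intervals include no change as well as a rise of more than 3-fold for each gene.

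The chromosomal passenger genes overlapped between groups. *Birc5*, which encodes survivin, read 4.35, 5.13 and 5.57 in control and 4.89, 5.29 and 6.05 in *Rbx1*&*Sag*-deficient cells. Both groups ran over a range of more than 1 log2 unit, and the log2 fold change was 0.39 (95% interval -0.46 to 1.25, adjusted p = 0.519 from limma). *Aurkb*, the kinase that survivin brings to centromeres, read 3.91, 4.0 and 4.09 in control and 3.28, 4.62 and 4.35 in *Rbx1*&*Sag*-deficient cells. The control arrays were close together and the *Rbx1*&*Sag*-deficient arrays lay on either side of them. *Aurkb* was below the array median on 3 of the 6 arrays, so that signal over background limits what can be read from its spread. The log2 fold change of *Aurkb* was 0.08 (95% interval -0.67 to 0.84, adjusted p = 0.891 from limma) and turned negative after quantile, cyclic loess and median scaling (-0.092, -0.068 and -0.11).

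The 2 other mitotic kinases did not pass the test either. *Plk1*, the polo-like kinase that acts from mitotic entry to cytokinesis, read 6.75, 6.33 and 6.28 in control and 6.40, 5.76 and 7.02 in *Rbx1*&*Sag*-deficient cells. It was the only marker besides *Ccnb2* with a lower mean in *Rbx1*&*Sag*-deficient cells. Its log2 fold change of -0.06 (95% interval -0.79 to 0.67, adjusted p = 0.921 from limma) turned positive after quantile (0.529), cyclic loess (0.399) and bright-gene centring (0.533). *Bub1*, the checkpoint kinase at kinetochores, read 2.78, 3.33 and 3.23 in control and 3.50, 3.31 and 3.62 in *Rbx1*&*Sag*-deficient cells, below the median of every array. The log2 fold change was 0.36 (95% interval -0.16 to 0.89, adjusted p = 0.325 from limma), and after bright-gene centring *Bub1* (0.957, adjusted p = 0.0268) and *Cdk1* (0.797, adjusted p = 0.0342) were called higher, from signals near background.

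**Figure D2:**
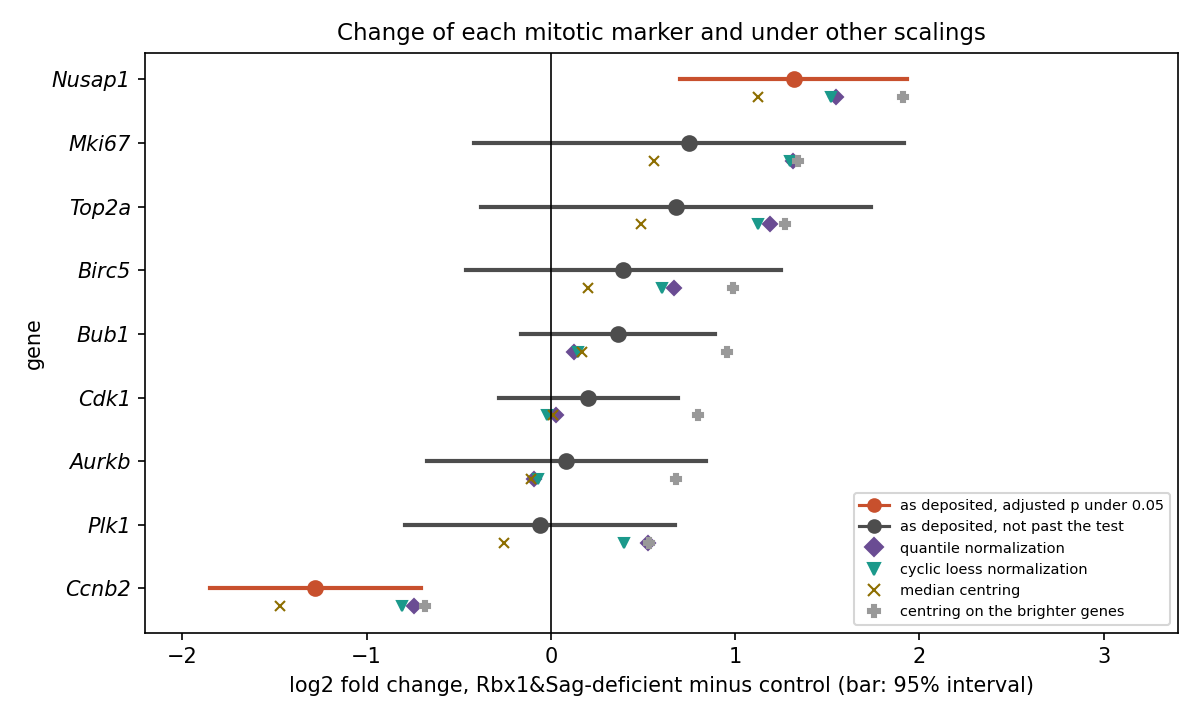
Log2 fold change (horizontal axis, *Rbx1*&*Sag*-deficient minus control) of each mitotic marker (vertical axis), with 95% intervals for the deposited values and symbols for 4 other scalings. Points of *Nusap1* lie between 1.12 and 1.91 and those of *Ccnb2* between -1.47 and -0.683, and symbols for *Plk1* and *Aurkb* fall on either side of 0.

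Across arrays, the markers varied more in *Rbx1*&*Sag*-deficient than in control cells. The SD was larger in the *Rbx1*&*Sag*-deficient group for 6 of the 9 genes, all but *Birc5*, *Nusap1* and *Bub1*, and the median SD was 0.589 against 0.293 in control cells. Over all genes these medians were 0.34 and 0.225, so that a wider spread in the *Rbx1*&*Sag*-deficient arrays was general. The mean log2 signal of the 9 markers was 5.10, 5.44 and 5.27 in control replicates 1 to 3 and 5.03, 5.71 and 5.90 in *Rbx1*&*Sag*-deficient replicates 1 to 3. *Rbx1*&*Sag*-deficient replicate 1 was lowest of its group for 7 of the 9 markers, all but *Plk1* and *Bub1*, against 30.0% of all genes. Highest of the group was replicate 2 for *Mki67*, *Ccnb2*, *Cdk1* and *Aurkb* and replicate 3 for the other 5. Among genes above the median signal, the 5 whose log2 values ran most like the mean of the markers over the 6 arrays were *Mcm3* (Pearson's r = 0.984), *Tmem104* (0.982), *Aldh7a1* (0.972), *Nanog* (0.969) and *Il20rb* (0.967). These correlations describe 6 arrays that share the difference between groups, and the genes were selected for them. *Nanog* and *Il20rb* were dim, below the array median on 2 arrays and on 1. *Nanog* read 4.04 to 4.44 in control and 3.63 to 4.93 in *Rbx1*&*Sag*-deficient cells.

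Markers of other cell types were read beside these values. Of 5 measured markers each, 1 B cell gene (*Cd79b*) and 2 myeloid genes (*Lyz2* and *Spi1*) fell, where 9.49% of all genes were called lower and 2.7% higher. *Lyz2* read 4.08 to 5.59 in control and 3.06 to 3.16 in *Rbx1*&*Sag*-deficient cells, and *Spi1* 4.66 to 6.25 and 2.82 to 3.78. *Itgam* (0.477) and *Adgre1* (0.31) had positive log2 fold changes and *Csf1r* (-0.583) a negative one, none of them called. The mean log2 of the myeloid list lay at 3.78 to 4.57 in control and 3.31 to 3.58 in *Rbx1*&*Sag*-deficient cells. The B cell markers *Cd79a*, *Ms4a1* and *Pax5* lay below the median of all 6 arrays, and so did *Cd8a* and *Ncr1* of the CD8+ T and natural killer cell list. That list averaged 5.16 to 5.46 and 4.30 to 4.72, with 2 of 6 genes lower, *Nkg7* and *Klrb1c*. *Klrb1c* read 4.71 to 5.26 in control and 2.90 to 3.16 in *Rbx1*&*Sag*-deficient cells. Some others on these lists were brighter. *Cd79b* read 6.95 to 7.19 in control and 5.08 to 5.42 in *Rbx1*&*Sag*-deficient cells. *Cd8b1* read 8.46 to 8.89 and 8.42 to 9.09, and *Nkg7* 7.09 to 8.18 and 3.99 to 5.93. Plasma cell markers averaged 3.96 to 4.13 and 3.01 to 4.07, with 1 of 5 lower. Of the erythroid list 3 of 6 genes were measured, at 3.21 to 3.68 and 3.76 to 4.09, and *Epor* was called higher. The part of any of these cells in the values of the mitotic markers was not tested.

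Other genes of mitosis moved in both directions as well. Of 143 measured genes in 6 lists, 12 rose and 8 fell, with a median log2 fold change of 0.06. The share called was 14.0%, against 12.2% of all genes and 21.4% of those above the median signal. Of the 143, 36 lay at or below the median signal. Among 18 other mitotic kinases, cyclins and phosphatases 3 rose and none fell (16.7% called), and 5 had an unadjusted p under 0.05 from limma, all of them higher. Of all genes 30.2% had such a p, 11.4% higher and 18.9% lower. *Pkmyt1*, an inhibitory kinase of Cdk1, read 5.43, 5.59 and 5.17 in control and 7.13, 7.39 and 9.01 in *Rbx1*&*Sag*-deficient cells. *Cks2*, a small subunit of Cdk complexes, read 5.75, 6.23 and 6.32 and then 7.32 to 8.02. *Mastl*, the Greatwall kinase that restrains the phosphatase PP2A, had the third rise of this list. Their log2 fold changes were 2.45, 1.52 and 1.49 (adjusted p = 0.0107, 0.00947 and 0.0167 from limma), and all 3 were called under the 4 scalings. Without control replicate 3 *Pkmyt1* (2.33, adjusted p = 0.0553) and *Mastl* (1.23, adjusted p = 0.0703) did not pass, nor did *Mastl* without control replicate 2 (1.62, adjusted p = 0.0558). After bright-gene centring 7 of the 18 rose (38.9% called, against 40.4% of all genes).

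At the kinetochore, 4 of 43 genes rose and 2 fell (14.0% called, against 12.2% of all genes and 21.4% of those above the median signal). *Sgo1*, shugoshin, which guards cohesin at centromeres, read 5.97, 5.07 and 5.36 in control and 7.68, 7.23 and 8.52 in *Rbx1*&*Sag*-deficient cells, and rose by 2.34 on the log2 scale (adjusted p = 0.00569 from limma). *Mis12*, of the complex that carries the Ndc80 complex at the kinetochore, read 8.46, 8.66 and 8.12 and then 4.40, 6.02 and 6.07, and fell by 2.92 (adjusted p = 0.00444 from limma). Both calls held without any single array and under all 4 scalings. *Spc24* (1.11) and *Spc25* (1.40), which pair within the Ndc80 complex, rose as well, though neither was called without control replicate 1, 2 or 3 (highest adjusted p = 0.0904 and 0.142), nor was *Spc25* without *Rbx1*&*Sag*-deficient replicate 1 (adjusted p = 0.0801) or after quantile (adjusted p = 0.0551) or median (adjusted p = 0.0509) scaling. *Cenpk* also rose and *Mis18a* also fell, both named after their values were seen. Leaving out 1 array, each was called in 1 of 6 cases, *Cenpk* without *Rbx1*&*Sag*-deficient replicate 3 and *Mis18a* without *Rbx1*&*Sag*-deficient replicate 1 (highest adjusted p = 0.169 and 0.188), and neither was called after quantile or cyclic loess normalization (adjusted p from 0.0748 to 0.172), nor *Cenpk* after median or *Mis18a* after bright-gene centring (adjusted p = 0.0838 and 0.133). Over the list 3 rose and 1 fell with quantile or cyclic loess normalization, 2 rose and 4 fell after median centring, 21 rose and 1 fell after bright-gene centring, and 1 rose and 1 fell without control replicate 1, 2 or 3. The shares called were 9.3% (quantile or cyclic loess), 14.0% (median) and 51.2% (bright-gene), against 6.5%, 7.73%, 14.4% and 40.4% of all genes. Without a control array the share was 4.65%, against 3.18% to 4.8% of all genes.

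The anaphase-promoting complex with its inhibitors and substrates had the lowest median of the 6 lists, -0.653 over 21 genes, beside -0.397 for all genes above the median signal. There 4 genes fell and 1 rose, and 19 of 21 log2 fold changes were negative. The share called was 23.8%, against 12.2% of all genes and 21.4% of those above the median signal. With quantile or cyclic loess normalization 1 fell and 1 rose, after bright-gene centring 2 fell and 2 rose, and after median centring 6 fell and none rose. The shares called were 9.52% (quantile or cyclic loess), 19.0% (bright-gene) and 28.6% (median), against 6.5%, 7.73%, 40.4% and 14.4% of all genes. Without control replicates 1, 2 and 3, 2, 1 and 2 fell and none rose, and without *Rbx1*&*Sag*-deficient replicates 1, 2 and 3, 3, 9 and 2 fell and 0, 0 and 1 rose. Of all genes 4.8%, 3.18% and 3.49% were called without control replicates 1, 2 and 3. Without *Rbx1*&*Sag*-deficient replicates 1, 2 and 3 the all-gene shares were 7.86%, 18.6% and 10.9%. *Cdc23*, a subunit of the complex, read 7.98, 7.83 and 7.63 in control and 5.70, 6.42 and 6.41 in *Rbx1*&*Sag*-deficient cells, and fell by 1.64 on the log2 scale (adjusted p = 0.0064 from limma). This call held without any single array. *Pttg1*, securin, read 10.74, 11.08 and 10.47 and then 9.44, 9.64 and 9.23, and fell by 1.33 (adjusted p = 0.0107 from limma), but was not called without control replicate 2 (-1.17, adjusted p = 0.0599) or after quantile (-0.816, adjusted p = 0.0599) or cyclic loess normalization (-0.799, adjusted p = 0.0549). *Anapc2*, the cullin-like subunit, fell by 1.22 and *Ube2s*, the E2 enzyme that extends its ubiquitin chains, rose by 1.41. Each of these calls was kept without 1 of the 6 arrays and lost without any of the other 5, *Anapc2* without *Rbx1*&*Sag*-deficient replicate 2 and *Ube2s* without *Rbx1*&*Sag*-deficient replicate 3 (highest adjusted p = 0.123 and 0.113). The call of *Anapc2* was also lost after quantile, cyclic loess and bright-gene scaling (adjusted p = 0.14, 0.127 and 0.0878), and that of *Ube2s* after median centring (adjusted p = 0.0633). *Anapc4* also fell, named after its values were seen, but of the arrays left out was called only without *Rbx1*&*Sag*-deficient replicate 2 (highest adjusted p = 0.168), and not after quantile, cyclic loess or bright-gene scaling (adjusted p = 0.262, 0.247 and 0.23) or with an intensity trend (adjusted p = 0.0599).

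Spindle and chromosome genes were mostly not called. Of 29 spindle motors and microtubule proteins 3 rose and 1 fell, of 21 condensin and cohesin genes 1 rose and none fell, and of 11 cytokinesis genes 1 fell and none rose. The shares called were 13.8%, 4.76% and 9.09%, against 12.2% of all genes and 21.4% of those above the median signal. The spindle list had 3 higher and 1 lower with quantile or cyclic loess normalization, 2 and 2 after median centring, 16 and 1 after bright-gene centring, and 1 to 4 higher and 0 to 2 lower when an array was left out, the fewest higher without control replicate 3. Of this list 58.6% were called after bright-gene centring, against 40.4% of all genes. Under the other 3 scalings 13.8% were called, against 6.5% (quantile), 7.73% (cyclic loess) and 14.4% (median) of all genes. With 1 array left out, 3.18% to 18.6% of all genes were called. Unadjusted p values under 0.05 from limma were held by 11 spindle genes, 9 higher and 2 lower, by 9 condensin and cohesin genes, 5 higher and 4 lower, and by 4 cytokinesis genes, 2 in each direction. Such values were held by 30.2% of all genes, 11.4% higher and 18.9% lower. *Stmn1*, stathmin, which takes microtubules apart, read 7.32, 7.61 and 7.49 in control and 9.05, 10.44 and 10.66 in *Rbx1*&*Sag*-deficient cells. It rose by 2.58 on the log2 scale (adjusted p = 0.00527 from limma), a call that held without any single array. The chromokinesin *Kif4* rose by 2.00 (adjusted p = 0.0104 from limma; 1.99 and 0.0518 without control replicate 3), and the importin *Kpna2* fell by 1.82 (adjusted p = 0.00941 from limma; -1.69 and 0.0552 without control replicate 2). *Kif20a* (0.93), a kinesin of cytokinesis, and the condensin subunit *Ncaph* (1.61) rose, and *Ect2* (-1.28), which starts the cleavage furrow, fell. These 3 had adjusted p values of 0.0224 to 0.0395 from limma. Leaving out 1 array raised their highest adjusted p to 0.0985, 0.121 and 0.118, with *Kif20a* and *Ncaph* lost without each control array, *Kif20a* also without *Rbx1*&*Sag*-deficient replicate 1, and *Ect2* lost without every array other than control replicate 3. Median centring ended the calls of *Kif20a* (adjusted p = 0.0544) and *Ncaph* (adjusted p = 0.0636), quantile and cyclic loess normalization that of *Ncaph* (adjusted p = 0.0736 and 0.0525) and bright-gene centring that of *Ect2* (adjusted p = 0.12).

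**Figure D3:**
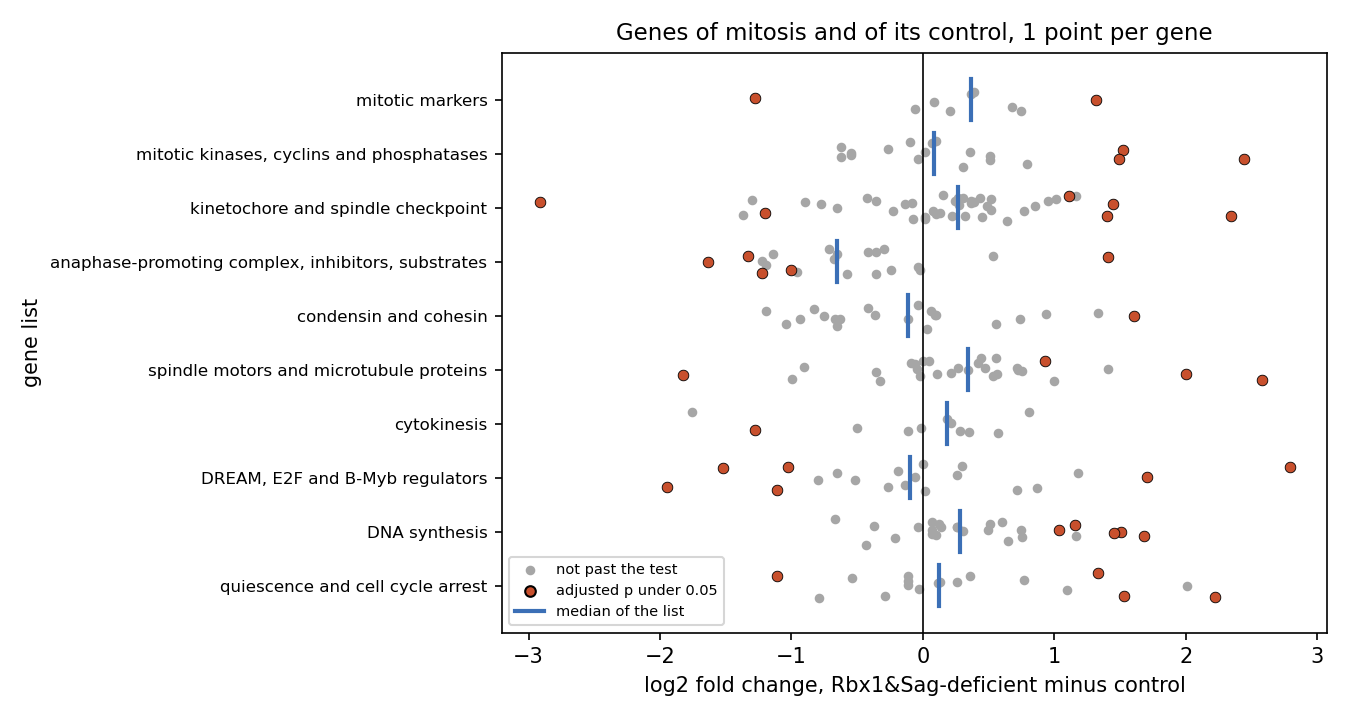
Log2 fold change (horizontal axis, *Rbx1*&*Sag*-deficient minus control) of each gene in the mitotic markers and in 9 further lists (vertical axis), 1 point per gene, filled orange where the adjusted p was under 0.05, with a blue bar at the median of each list. Calls lie on both sides of 0 in most lists, and the median of the anaphase-promoting complex list, -0.653, is the lowest.

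Regulators that sit above the mitotic markers were called in both directions. Of 20 DREAM, E2F and B-Myb genes 2 rose and 4 fell. That is 30.0% called, against 12.2% of all genes and 21.4% of those above the median signal. *E2f8*, an atypical E2F that represses cell cycle genes, read 4.07, 4.13 and 4.21 in control and 6.02, 7.76 and 7.01 in *Rbx1*&*Sag*-deficient cells and rose by 2.79 on the log2 scale (adjusted p = 0.00344 from limma). *E2f6*, another repressor, read 7.30, 8.31 and 7.27 and then 5.41, 5.81 and 5.83 and fell by 1.94 (adjusted p = 0.00673 from limma). Both calls held without any single array and under all 4 scalings. *Rbl2*, the p130 subunit of DREAM, read 12.58, 12.69 and 13.11 and then 10.66, 11.42 and 11.73, a fall of 1.52 (adjusted p = 0.0155 from limma). *E2f4*, its E2F partner, had a fall of 1.03 (adjusted p = 0.0209 from limma). *Rbl2* and *E2f4* were not called after quantile (-1.09 and -0.463) or cyclic loess normalization (-1.05 and -0.485), nor without control replicates 2 or 3 (highest adjusted p = 0.0748 and 0.0864), and *E2f4* was also lost without control replicate 1, without *Rbx1*&*Sag*-deficient replicate 1 and after bright-gene centring. *E2f7*, close kin of *E2f8*, rose and the DREAM subunit *Lin37* fell, both named after their values were seen. Without control replicate 1, 2 or 3 neither was called (highest adjusted p = 0.113 and 0.122), and *Lin37* was also lost without *Rbx1*&*Sag*-deficient replicate 1 (adjusted p = 0.0854) and after quantile, cyclic loess and bright-gene scaling (adjusted p = 0.245, 0.233 and 0.16). The list then had 3 higher and 1 lower with quantile, 4 and 1 with cyclic loess normalization, 2 and 4 after median centring and 6 and 2 after bright-gene centring, and 1 higher with 2, 1 and 1 lower without control replicates 1, 2 and 3.

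Genes of DNA synthesis, the step ahead of mitosis, were called in 1 direction. Of 26 measured genes 5 rose and none fell (19.2% called, against 12.2% of all genes, 2.7% higher and 9.49% lower). Of the genes above the median signal, to which all but 4 of the 26 belong, 21.4% were called, 3.02% higher and 18.3% lower. At an unadjusted p under 0.05 from limma 8 were higher and 1 lower, a threshold that 30.2% of all genes reached. With quantile or cyclic loess normalization 10 rose, after bright-gene centring 13 and after median centring 4, but 1 without control replicate 1, 2 or 3, and none fell under these settings. *Pole*, the leading-strand polymerase (1.68), *Lig1*, the ligase that joins Okazaki fragments (1.51), *Gins2* of the replicative helicase (1.16) and *Pcna*, the sliding clamp (1.04), had adjusted p values from 0.011 to 0.0228 from limma. *Pcna* read 15.43, 15.60 and 15.01 in control and 16.46, 16.42 and 16.27 in *Rbx1*&*Sag*-deficient cells. *Mcm5* also rose, named after its values were seen, but of the arrays left out was called only without *Rbx1*&*Sag*-deficient replicate 1 (highest adjusted p = 0.134), and not after median centring (adjusted p = 0.0622). *Pole* was not called without control replicate 2 (1.70, adjusted p = 0.0555), *Lig1* without control replicates 1 or 3 (highest adjusted p = 0.0616), and *Gins2* and *Pcna* without any of the control arrays or without *Rbx1*&*Sag*-deficient replicate 1 (highest adjusted p = 0.082 and 0.0992). Among 18 genes of quiescence and cell cycle arrest, 3 rose and 1 fell (22.2% called, against 21.4% of all genes above the median signal). This list had 1 higher and none lower without control replicate 1, 2 or 3 and 9 and 0 after bright-gene centring. *Klf2*, which keeps T cells quiet, rose by 2.23, the antiproliferative genes *Tob2* and *Tob1* by 1.53 and 1.33, and *Pdcd4* fell by 1.11 (adjusted p = 0.0046, 0.0228, 0.0449 and 0.0484 from limma). *Klf2* was called without any single array, whereas leaving out 1 array gave highest adjusted p values of 0.0895, 0.149 and 0.151 for the other 3. *Tob2* was lost without each control array or *Rbx1*&*Sag*-deficient replicate 1, *Tob1* without every array other than *Rbx1*&*Sag*-deficient replicate 3, and *Pdcd4* without every array other than *Rbx1*&*Sag*-deficient replicate 2. *Tob1* was not called after median centring (adjusted p = 0.0923), nor *Pdcd4* after quantile, cyclic loess or bright-gene scaling (adjusted p = 0.203, 0.114 and 0.187).

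**Figure D4:**
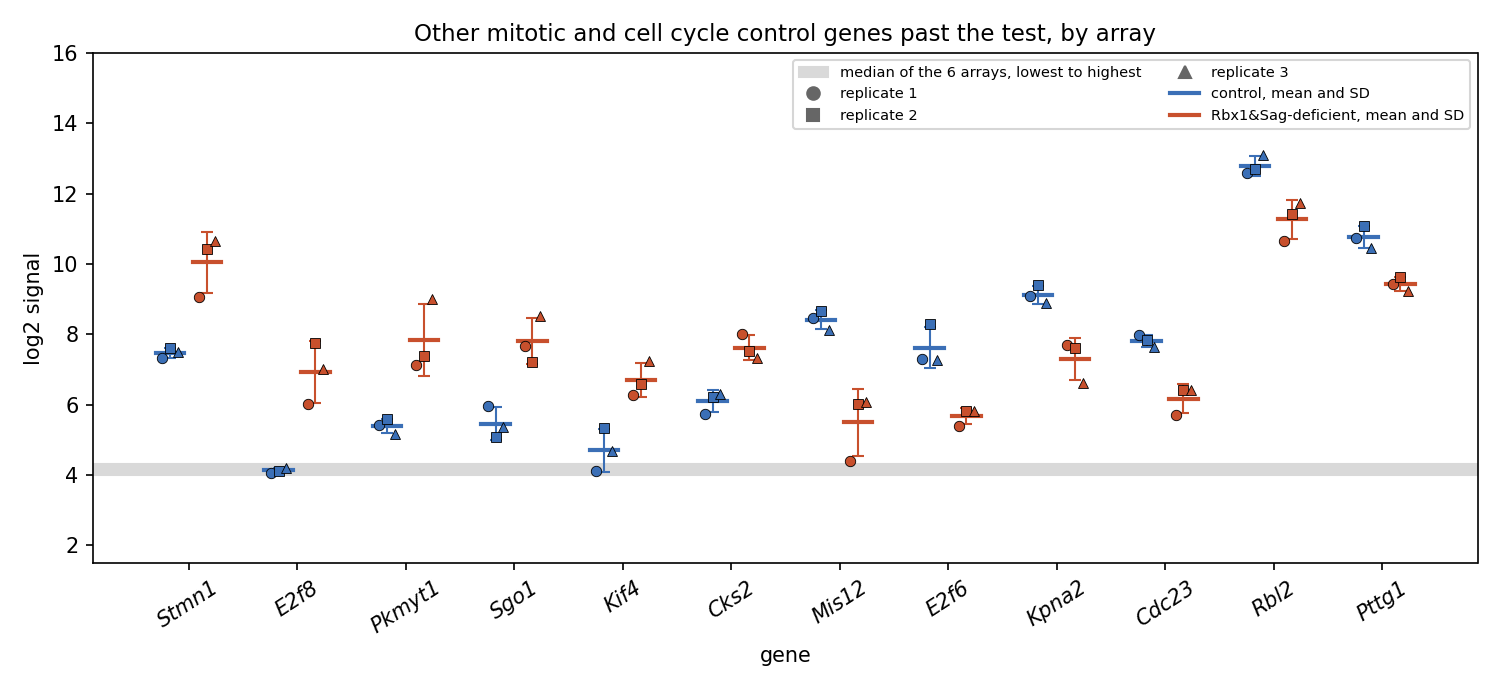
Log2 signal (vertical axis) on each array of 12 other mitotic and cell cycle control genes that passed the test (horizontal axis), drawn as in the plot of the mitotic markers by array. The 12 were picked among genes past the test on these arrays, so that a lack of overlap follows largely from the choice. Over all genes the share without overlap was 35.0%. *Stmn1* lay at 7.32 to 7.61 in control and 9.05 to 10.66 in *Rbx1*&*Sag*-deficient cells.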

How the data were processed

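RNA from CD4+YFP+ Treg cells, 3 pooled samples per genotype, was hybridised to Clariom S mouse arrays. Log2 signals of 22206 probe sets were deposited, made by the authors with Expression Console 1.4. Their normalization, annotation and genome build were not given in the sources used here. For CD4+ enrichment the labels and the study's methods name different kits. Through the platform's annotation 19572 probe sets had 1 gene symbol, 0 several and 2634 none, and 67 dimmer probe sets of a shared symbol were left out. All 19505 genes matched RefSeq of GRCm38.p6. All value columns were mapped to samples.

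Groups were compared two-sided with limma 3.58.1 (R 4.3.3; lmFit, then eBayes) and no covariate, with Benjamini-Hochberg adjustment over 19505 genes and a threshold of 0.05. A log2 fold change is the *Rbx1*&*Sag*-deficient mean minus the control mean. The fit was tested on simulated data with 200 changed genes and called 12% of simulated log2 changes of 1, 82% of those of 2 and 4 unchanged genes. The simulated noise was independent and of equal SD in both groups. In the data the *Rbx1*&*Sag*-deficient arrays spread more widely and 12.2% of all genes were called, so these figures need not hold for them. The number of arrays sets the precision. Quantile, cyclic loess and median normalization were run on top of the deposited values, as were bright-gene centring (on the median of genes brighter than the all-gene median), those genes alone, an intensity trend, robust moderation, array weights, the mean over probe sets of a symbol, the methods' t-test, the replicate number as a block and each array left out in turn.

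The markers and gene lists were chosen with earlier results of these data known, and the lists were written from general knowledge. Named genes are all markers, *Rbx1* and *Rnf7*, up to 4 genes per list with the smallest p among those called (2 where none was), and the 5 genes most like the mean of the markers. Promoter sequences are from RefSeq of GRCm38.p6.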

Additional observations from a re-analysis of the deposited data

How the results depend on the processing

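Of the mitotic markers, *Nusap1* kept its direction under all 17 alternatives and its call under 14, *Ccnb2* its direction under all 17 and its call under 11, and *Birc5* was called under none. Signs of genes that did not pass turned for *Cdk1* after cyclic loess normalization (-0.021), for *Aurkb* after quantile (-0.092), cyclic loess (-0.068) and median scaling (-0.11), with array weights (-0.078) and without *Rbx1*&*Sag*-deficient replicate 2 (-0.185) or 3 (-0.05), for *Plk1* after quantile (0.529), cyclic loess (0.399) and bright-gene centring (0.533) and without control replicate 1 (0.088) or *Rbx1*&*Sag*-deficient replicate 2 (0.257; -0.373 to 0.257 over the arrays left out), for *Rnf7* after bright-gene centring (0.023) and for *Nanog* without *Rbx1*&*Sag*-deficient replicate 3 (-0.063; -0.063 to 0.587 over the arrays left out). The median of the markers was 0.957 after bright-gene centring and 0.187 to 0.485 when an array was left out.

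Counts moved with the scaling. Markers called higher (1 as deposited) were 5 after bright-gene centring and 0 with the methods' t-test, and those called lower (1) were 0 after quantile, cyclic loess and bright-gene centring and with the t-test. Of the other mitotic genes 12 were higher and 8 lower as deposited, 10 and 4 with quantile or cyclic loess normalization, 7 and 14 with median centring, 56 and 4 after bright-gene centring and 0 and 0 with the t-test, where 36 had an unadjusted p under 0.05. Over the genes above the median signal alone 13 were lower. Of all genes 527 were higher and 1851 lower as deposited, 535 and 733 after quantile, 631 and 876 after cyclic loess, 266 and 2538 after median centring, 6966 and 910 after bright-gene centring and 7 and 23 with the t-test, and 324 were higher over the brighter genes alone. Leaving out an array gave 0 to 2 markers higher and 0 to 1 lower, 3 to 13 other mitotic genes higher and 2 to 22 lower, and 76 to 1012 of all genes higher and 544 to 2611 lower. With the t-test no named gene passed the adjusted threshold, *Rbx1* included (adjusted p = 0.0541), and 2 markers had an unadjusted p under 0.05. The cause of these shifts was not tested.

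Replicate numbers are shared by the groups, but nothing in the labels ties equal numbers to a shared litter or day. Deviations of same-numbered samples correlated at 0.00879, 0.109 and 0.0209, and those of unlike-numbered samples at -0.133 to 0.111. With 3 arrays per group these values cannot tell whether the numbers pair the samples. With the replicate block 1 marker was higher and 1 lower, 14 other mitotic genes were higher and 13 lower, 534 of all genes were higher and 2010 lower, and of the named genes *Pdcd4* and *Cenpk* lost their calls (adjusted p = 0.0502 and 0.0522). *Cdk1* and *Bub1* lay below the median of every array and *Aurkb* below that of 3 arrays, where signal over background limits what can be read.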
